A study of Homo sapiens with 24 samples.

Results

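The genes described here are 37 interferon-stimulated and MHC class I genes, chosen by symbol from 33230 gene symbols in 36468 entries of a count table, and read from the first entry under each symbol. The RNA came from 24 whole cultures of sensory neurons derived from H9WAO9, a line of human embryonic stem cells, in 6 labelled batches with 1 library of each of 4 groups. All cultures passed through 12 days of vagal neural crest induction, 4 days as spheroids and 6 days of sensory neuron differentiation, and were then matured. Cultures received vehicle (PBS with 0.1% bovine serum albumin), 2 ng/ml TGF-β, or 10 ng/ml IL-4 with 3 ng/ml IL-13, each for 5 days. The fourth group is labelled IL-6, and its dose and time of exposure are not given in the sources used here. Every group holds 6 libraries of wild-type cells of this single line. Batch is a term of the model, so the p-values measure how evenly differences within a batch repeat over batches of one genotype.

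Interferons are secreted proteins that bind cell surface receptors and act through JAK kinases and transcription factors such as STAT2, which with IRF9 switches on genes that carry an interferon-stimulated response element. Many of the induced proteins restrict viruses. MHC class I molecules, built from an HLA heavy chain and β2-microglobulin, present peptides from inside the cell to T cells and are raised by interferon, while neurons are known for low levels of them.

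Libraries held between 33342682 and 39817784 counts, and the members took 0.0651% to 0.208% of a library. Markers of neurons were present in every library, with TUBB3 at 7989 to 43547 counts, and so was COL1A1 of mesenchyme at 25627 to 272161 counts. The cultures are mixed, so fewer cells of a type and less RNA per cell cannot be told apart. The vehicle library of batch 2 stood apart after group means were removed. Its mean correlation with the other groups was 0.0357 in its own batch, 0.396 in batch 3 and 0.428 in batch 4. Results are therefore also given without that library where they change.

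Of the 37 members, 34 had a total of at least 10 counts in the first entry and were tested. Of these, 6 passed an adjusted p under 0.05 in a comparison, and the stretch of 170 bases before the start site is shown for the 5 of them with a RefSeq promoter window on GRCh38.p14. They are printed because members that moved together may be compared at the motif that interferon-activated factors bind. Capitals mark the core of the interferon-stimulated response element, read here as GAAA, any 2 bases and GAAA, on either strand. The stretches lie at chr10:89327827-89327996 (IFIT3, the first of its 2 windows), chr10:89392453-89392622 (IFIT1), chr1:78620278-78620447 (IFI44L), chr15:44711347-44711516 (B2M) and chr12:112906792-112906961 (OAS1), all on the plus strand.
IFIT3: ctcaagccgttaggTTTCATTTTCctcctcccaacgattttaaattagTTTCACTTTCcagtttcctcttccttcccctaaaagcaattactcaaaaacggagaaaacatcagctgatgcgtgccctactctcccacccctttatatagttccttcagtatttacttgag
IFIT1: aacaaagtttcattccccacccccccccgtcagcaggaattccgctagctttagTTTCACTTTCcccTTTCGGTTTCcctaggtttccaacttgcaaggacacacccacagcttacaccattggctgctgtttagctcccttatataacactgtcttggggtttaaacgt
IFI44L: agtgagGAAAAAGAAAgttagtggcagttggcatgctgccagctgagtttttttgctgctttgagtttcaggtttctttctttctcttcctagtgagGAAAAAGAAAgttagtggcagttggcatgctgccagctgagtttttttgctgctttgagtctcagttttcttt
B2M: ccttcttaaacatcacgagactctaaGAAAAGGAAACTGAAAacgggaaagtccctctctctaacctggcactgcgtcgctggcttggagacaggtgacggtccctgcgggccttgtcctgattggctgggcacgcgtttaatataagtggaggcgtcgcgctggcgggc
OAS1: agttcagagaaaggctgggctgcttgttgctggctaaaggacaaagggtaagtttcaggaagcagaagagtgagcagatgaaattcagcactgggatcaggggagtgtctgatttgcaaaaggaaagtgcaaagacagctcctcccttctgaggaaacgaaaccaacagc

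The core occurred 2 times in each of the IFIT3, IFIT1, IFI44L and B2M stretches, and the 2 matches in B2M overlap. The OAS1 stretch held no match to this strict pattern. Near its end it holds 2 GAAA with 1 base between them, a spacing that the pattern does not accept. A miss of the pattern does not show that the element is absent. Over windows of 300 bases, from 250 before to 50 after the start, 21 of the 29 members with a window had at least 1 match. Counted by window, 25 of their 37 windows (67.6%) had a match, against 3.57% of all 35116 windows. TTC, any 3 bases and GAA, the interferon-γ-activated site, was found in 10 of the 29 members. It lay in 29.7% of their windows and in 7.66% of all windows. TTC, any 4 bases and GAA, the spacing preferred by STAT6, was found in 6 members, in 18.9% of member windows and in 6.44% of all windows. IFIT3 and IFI44L, which went opposite ways between TGF-β and IL-4 + IL-13, both carry the response element core. Of these 2, IFIT3 also has a match to the STAT6 spacing and IFI44L has none. Neither has a match to the interferon-γ-activated site. Whether these motifs bear on the direction was not tested. A match is a stretch of letters and not a measured binding site.

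In vehicle cultures the members were compared per transcript length, as counts per kilobase of the canonical transcript scaled to the library total (RPKM). Counts of all entries of a symbol were summed for this. The membrane proteins IFITM3 and IFITM1, which block virus entry, were highest, at a median of 561.5 and 362.5 RPKM. B2M, the invariant chain of MHC class I, followed at 274.4 (183.4 to 482.6), and IFITM2 stood at 89.9 (38.4 to 131.4). With its first entry alone B2M stood at 176.6 (120.2 to 310.0), which overlaps IFITM2. The heavy chains HLA-C and HLA-B stood at 57.7 and 56.0, and TAPBP, the tapasin of the peptide-loading complex, at 16.1. The first entry alone gave a median of 12.5 for HLA-C and 0.745 for HLA-B. IFIT1, a binder of foreign RNA ends, stood at 2.75 (range 2.53 to 3.60), below IFIT5 of the same family at 7.78 (5.56 to 8.25). NLRC5, the transactivator of MHC class I genes, stood at 0.196, and MX2, XAF1, OAS2, OASL and OAS3 stood lower still, with OAS3 at a median of 0. In sums, each gene of the order overlapped the next over the 6 batches, apart from the steps from B2M to IFITM2, from TAPBP to IRF9 and from IRF9 to IFIT5. With first entries alone, the genes of all 3 steps overlapped, and TAPBP, at 3.83, and IRF9, at 4.17, stood below IFIT5.

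**Figure D1:**
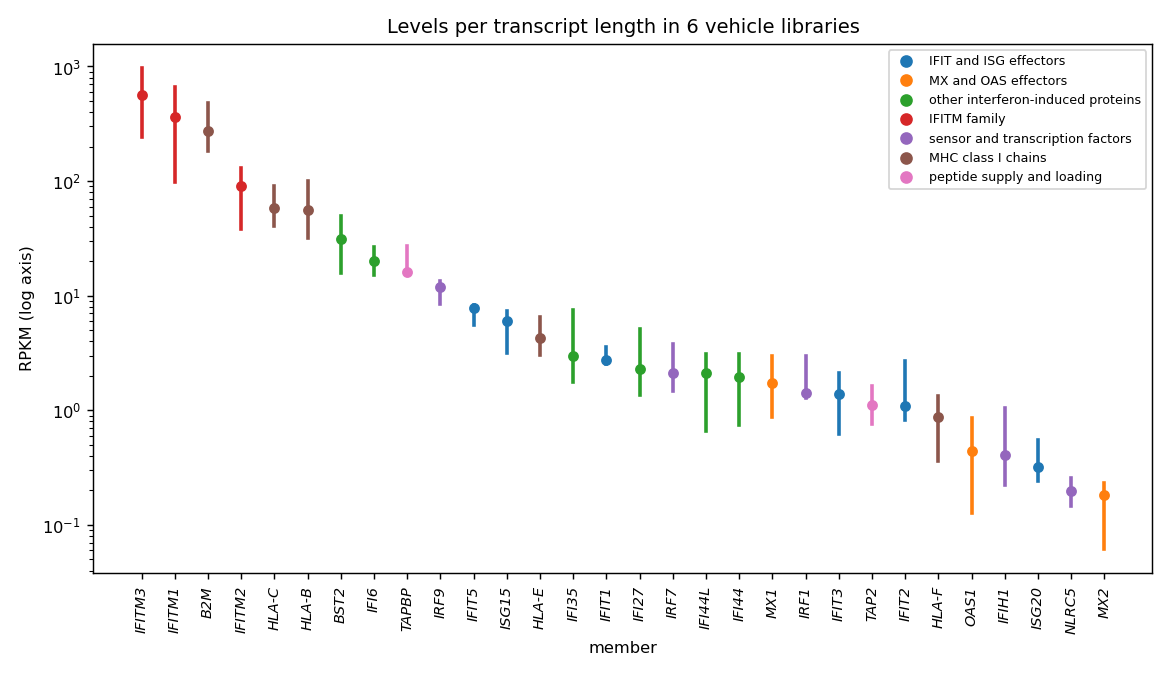
Levels of the members in the 6 vehicle libraries, in RPKM on the canonical transcript, on a log axis, with a point at the median and a bar from the lowest to the highest batch, coloured by role. The 7 members with a library at 0 are not drawn, and IFITM3, IFITM1 and B2M have the highest medians, in sums of entries.

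TAP1, a peptide transporter subunit, and PSMB8 and PSMB9, which are among the inducible subunits of the immunoproteasome, had 0 counts in the first entry of every library. Summed over their 8 entries each, all 24 libraries together held 16, 7 and 3 counts. TAP2, the partner of TAP1, held 121 to 379 counts per library in the same sums. These 3 genes had no test of the first entry. How reads that match several entries were counted is not given in the sources used here, so that low RNA and reads left uncounted cannot be told apart.

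With TGF-β, 2 members of the IFIT family fell. The normalized level of IFIT1, as log2(normalized counts + 1), ran from 8.57 through a median of 8.67 to 9.24 in vehicle and from 7.43 through 7.82 to 8.63 in TGF-β. The groups overlapped at their edges, yet TGF-β was lower in 6 of 6 batches. The fall was 0.77 on the log2 scale (log2 fold change -0.77 ± 0.15 SE, edgeR quasi-likelihood adjusted p = 0.0290). IFIT3, which works in a complex with IFIT1, had a median of 6.86 (5.82 to 7.63) in vehicle and 5.77 (5.15 to 7.33) in TGF-β, was lower in 6 of 6 batches and changed by -0.76 ± 0.16 (adjusted p = 0.0482). IFIT2 had a median of 7.05 (6.64 to 8.28) in vehicle and 6.03 (5.58 to 7.92) in TGF-β. It too was lower in 6 of 6 batches, at -0.81 ± 0.19, but did not pass the test with edgeR (adjusted p = 0.0759) and passed with DESeq2 (adjusted p = 0.00539).

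Thus 2 of 34 members passed an adjusted p under 0.05 in TGF-β against vehicle, both lower, where 0.347% of all 29377 entries passed and 0.266% passed as lower. None also exceeded a log2 fold change of 1 (0.143% of all entries). At an unadjusted p under 0.05 stood 8 members, 7 of them lower, where 7.29% of entries stood and 4.87% stood as lower. The other lower ones were B2M (-0.39 ± 0.11, adjusted p = 0.228), OAS1, a producer of the messenger that activates RNase L (-1.52 ± 0.45, edgeR adjusted p = 0.230, DESeq2 adjusted p = 0.0279), IFI6 (-0.41 ± 0.15, adjusted p = 0.448) and IFI35 (-0.51 ± 0.20, adjusted p = 0.478). OAS3 was higher, from 0 to 12 counts per library in TGF-β against 0 to 2 in vehicle. IFIT5, an IFIT gene at a higher level, had log2 fold changes between -0.06 and 0.05 in the 6 comparisons. Neither call was stable to the loss of a batch: without any one batch IFIT3 missed the threshold (adjusted p 0.0619 to 0.260), and IFIT1 missed it without batch 1, 2, 3, 4 or 5 (highest adjusted p 0.247).

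**Figure D2:**
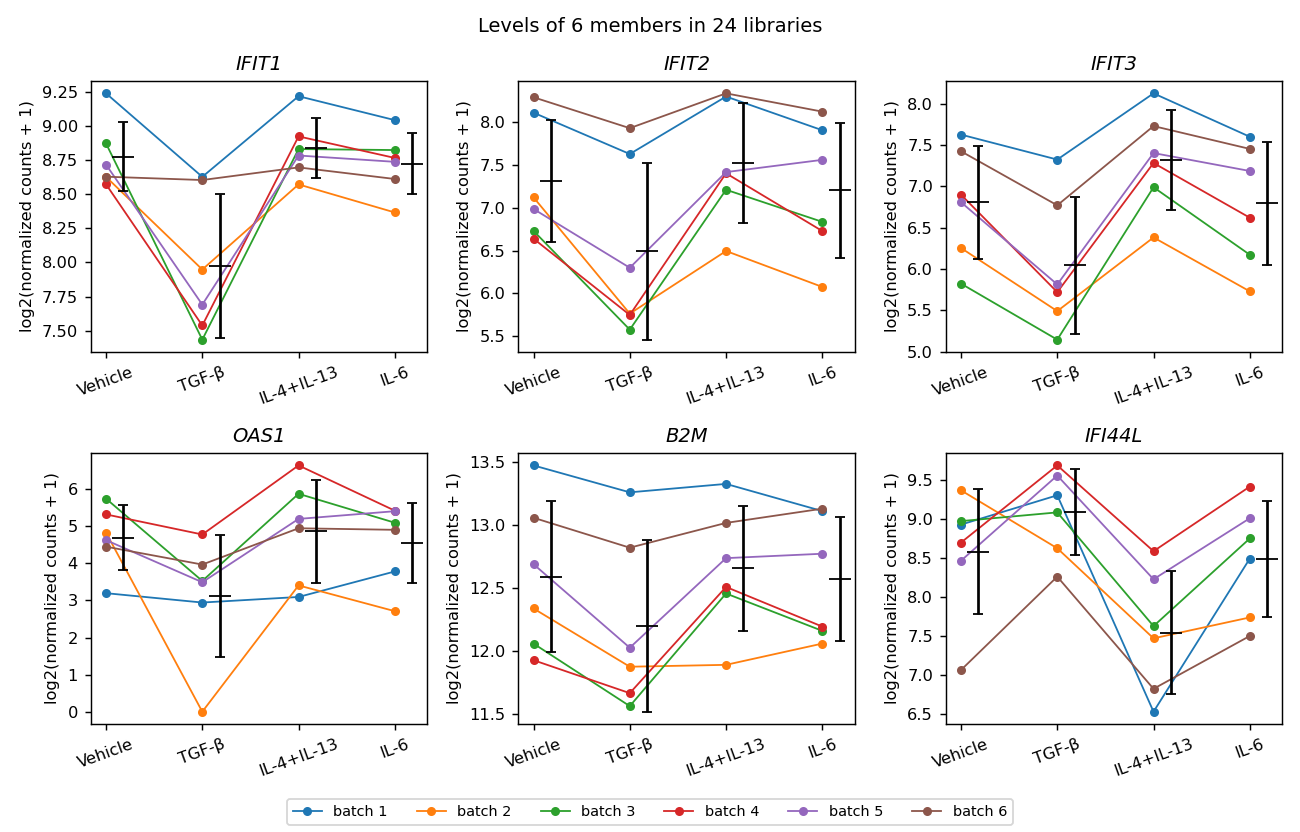
Levels of the 6 members with an adjusted p under 0.05 in any comparison, in log2(normalized counts + 1), in 24 libraries, with a line per batch and a black bar for the group mean and SD. IFIT1, IFIT2 and IFIT3 dip with TGF-β in every batch, and IFI44L is lowest with IL-4 + IL-13 in every batch.

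IL-4 with IL-13 left no member at an adjusted p under 0.05 by edgeR, where 0.633% of entries passed and 0.371% also exceeded the fold, and 5 members at an unadjusted p under 0.05 against 9.1% of entries. DESeq2 passed 2, IFI44L and IFIT3. The level of IFI44L, an interferon-induced protein, had a median of 8.82 (7.06 to 9.37) in vehicle and 7.55 (6.53 to 8.59) under the pair of interleukins. It was lower in 6 of 6 batches, by 1.08 on average (log2 fold change -1.08 ± 0.27, edgeR adjusted p = 0.0917, DESeq2 adjusted p = 0.00537). IFIT3 had a median of 7.34 (6.38 to 8.13) against 6.86 in vehicle and was higher in 6 of 6 batches, by 0.52 ± 0.16 (edgeR adjusted p = 0.230, DESeq2 adjusted p = 0.0449). OASL and OAS2, at no more than 16 and 54 counts per library, and IFIH1 (0.42 ± 0.20, adjusted p = 0.548) made up the 5.

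IL-6 left no member at an adjusted p under 0.05 by edgeR or DESeq2, and edgeR called no entry of the whole table (0%). At an unadjusted p under 0.05 stood 2 members, against 4.77% of entries. ISG15, a ubiquitin-like modifier, had a median level of 7.57 (6.70 to 8.06) with IL-6 and 7.12 (6.14 to 7.43) in vehicle, higher in 5 of 6 batches (0.43 ± 0.15, adjusted p = 0.850). OAS3, the other, was at 0 to 9 counts per library. A miss of the threshold does not show that IL-6 left these genes the same.

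More entries passed in TGF-β against IL-4 + IL-13 than in any of the other 5 comparisons. These 2 groups share no library, while both comparisons above share the vehicle libraries. At an adjusted p under 0.05 stood 6 of 34 members, where 2.98% of entries stood, and 4 of them passed a log2 fold change of 1 as well, where 1.18% of entries did. IFIT3 was lower with TGF-β by 1.28 on the log2 scale (log2 fold change -1.28 ± 0.16, adjusted p = 0.000114) and in 6 of 6 batches. IFIT2 (-1.02 ± 0.19, adjusted p = 0.00353), IFIT1 (-0.83 ± 0.15, adjusted p = 0.00285), B2M (-0.46 ± 0.11, adjusted p = 0.0284) and OAS1 (-1.67 ± 0.44, adjusted p = 0.0420) were also lower in 6 of 6 batches, so that 5 members were lower, as were 1.9% of entries. IFI44L went the other way and was higher with TGF-β in 6 of 6 batches (1.5 ± 0.27, adjusted p = 0.00296), from a median of 7.55 with the interleukins to 9.20 (8.26 to 9.69). IFI44, which lies next to IFI44L on chromosome 1 (78649789 to 78664078), did not pass.

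IFIT1, IFIT2, IFIT3 and IFI44L stayed under 0.05 in 15 of 16 fits and lost it when batch was left out of the model. Without batch 3, 4 or 5, only 2 members exceeded the fold as well. B2M passed in 9 of 16 and OAS1 in 10 of 16. Both were lost without batch 3, 4, 5 or 6, with adjusted p up to 0.244 for B2M and 0.265 for OAS1. OAS1 had 0 to 24 counts per library in TGF-β and 8 to 107 in IL-4 + IL-13. IFI6 missed the threshold (-0.56 ± 0.15, adjusted p = 0.0508) but passed in 5 of 16 fits, among them sums of entries (adjusted p = 0.0429), where 7 members passed, and DESeq2 (adjusted p = 0.0164).

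Markers of other cells moved in the same contrast. The summed level of 5 endothelial markers was lower under TGF-β, compared with the interleukins, in 6 of 6 batches (median difference -1.28), at 9.21 to 11.4 against 9.99 to 12.5. KDR made up most of the sum (269 to 5999 counts, log2 fold change -1.29, adjusted p = 0.0115), while PECAM1, CDH5 and VWF held 0 to 56 counts and TEK 0 to 226. Of 8 mesenchyme markers, COL1A1 was higher by 1.31 (adjusted p = 0.00627), and it weighs heavily in their summed level, which was higher in 6 of 6 batches (median 0.44). The other 7 did not pass, and the list as a whole gave 4 higher and 4 lower, with a median log2 fold change of 0.03. The leukocyte list was lower in 4 of 6 (median -0.141), and none of its genes reached an unadjusted p under 0.05 by edgeR. PTPRC held 168 to 1471 counts and CD68 136 to 1413. AIF1, CD14, ITGAM and LYZ held at most 15 counts in a library, and CD3E and TYROBP held 0. The part of these cells in the members' differences was not tested.

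**Figure D3:**
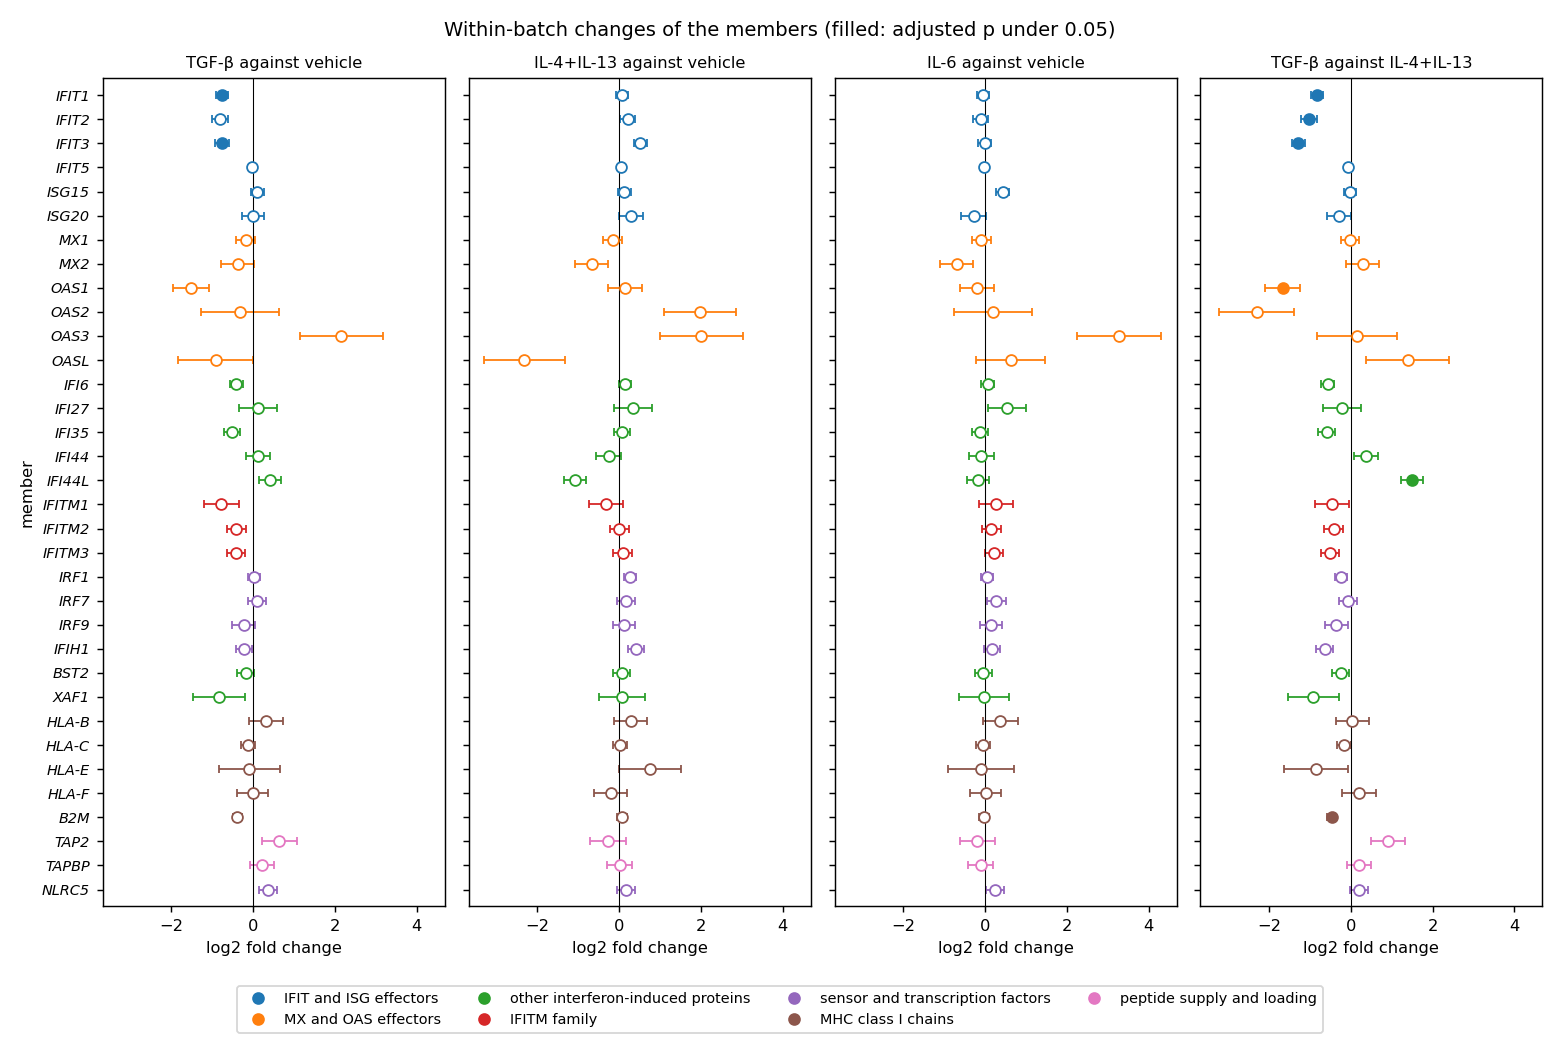
Log2 fold changes with standard errors (bars) of the 34 tested members, first entry, in 4 comparisons, coloured by role and filled where the adjusted p was under 0.05. The bars of OAS2, OAS3, OASL and HLA-E are the widest, and filled points appear only with TGF-β against vehicle and TGF-β against IL-4 + IL-13.

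Against IL-6, TGF-β left no member under 0.05 by edgeR (0.0783% of entries passed, 0.0306% with the fold) and 11 at an unadjusted p under 0.05, 10 of them lower, where 7.5% of entries stood and 4.51% stood as lower. DESeq2 passed IFIT1, IFIT3 and IFIT2. IFIT1 was lower by 0.72 ± 0.15 in log2 terms (log2 fold change -0.72, edgeR adjusted p = 0.0615) and IFIT3 by 0.75 ± 0.16 (log2 fold change -0.75, adjusted p = 0.0772), each in 6 of 6 batches. Without the vehicle library of batch 2, both passed (adjusted p = 0.0370 and 0.0397). IFITM1, IFITM2 and IFITM3 were among the 11, at -1.04 ± 0.42, -0.57 ± 0.23 and -0.64 ± 0.22. These genes are similar in sequence, and how the counting treated reads that match more than one is not given in the sources used here, so their separate values are uncertain. IL-4 + IL-13 against IL-6 left no member under 0.05 by either tool (0.456% of entries by edgeR, 0.279% with the fold) and IFI44L, IFIT3 and OASL at an unadjusted p under 0.05 (4.57% of entries).

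In the first entry, the remaining effectors and regulators stood at an unadjusted p above 0.05 in all 6 comparisons. MX1, a dynamin-like GTPase that blocks viral replication, held 93 to 302 counts in a vehicle library, at a median level of 7.38 (6.58 to 8.29), and its log2 fold changes ran from -0.18 to -0.02. BST2, or tetherin, which holds budding virus at the cell surface, was at 10.1 (9.08 to 10.9) in vehicle and changed by -0.18 ± 0.20 with TGF-β, 0.07 ± 0.20 with IL-4 + IL-13 and -0.04 ± 0.20 with IL-6. The transcription factor IRF1 was at 7.48 (7.29 to 8.69) and changed by 0.03 ± 0.14, 0.26 ± 0.14 and 0.06 ± 0.14 in the same order. IRF7, a regulator of type I interferon genes, was at 5.76 (4.83 to 6.81) and changed by 0.10 ± 0.23, 0.17 ± 0.22 and 0.28 ± 0.22. For these 4 genes each difference from vehicle was less than 2 times its standard error. Fewer counts lay behind ISG20, an exonuclease (14 to 33 per vehicle library), IFI27 (7 to 53) and the heavy chain HLA-F (2 to 11 in the first entry), whose log2 fold changes ran from -0.29 to 0.57, from -0.41 to 0.54 and from -0.22 to 0.19. The first entry held 35.2% of all IFI27 counts and 13.9% of those of HLA-F. In sums, IFI27 was higher with IL-4 + IL-13 than in vehicle in 6 of 6 batches, by 0.55 ± 0.25 (unadjusted p = 0.0365, edgeR adjusted p = 0.500). IRF9, XAF1, MX2, IFI44 and NLRC5 also stayed above 0.05, and XAF1 had the widest range of them, from -0.91 to 0.10.

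Over all 4 groups at once, 11 members stood at an unadjusted p under 0.05 (9.62% of entries), and 4 passed an adjusted one (1.81% of entries): IFIT3 (0.00104), IFIT1 (0.0114), IFIT2 (0.0241) and IFI44L (0.0243). Over the 34 members as they stand, TGF-β against vehicle gave 22 lower and 12 higher, where 52.6% of all entries were lower. The median log2 fold change was -0.18 where all entries had -0.01. IL-4 + IL-13 against vehicle gave 26 higher and 8 lower (median 0.08, all entries -0.01) in first entries, where 51.5% of entries were lower. In sums of entries it gave 21 higher and 14 lower (median 0.07), where 50.2% of symbols were lower. IL-6 gave 16 higher and 18 lower in first entries, where 52.7% of entries were lower.

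The MHC class I chains depend on how the table lists them. HLA-E has 7 entries and HLA-B 6, and the first entry held 0% to 13.4% of the HLA-E counts and 0.266% to 5.47% of the HLA-B counts of a library. After batch and group were removed, the SD of the HLA-E level was 1.71 for the first entry and 0.142 for the sum of entries, and that of HLA-B 0.754 and 0.173. In sums, HLA-B changed by -0.01 ± 0.09 with TGF-β, -0.13 ± 0.09 with IL-4 + IL-13 and -0.04 ± 0.09 with IL-6, and HLA-C and HLA-E by no more than 0.09 in size. HLA-F, in sums, was the heavy chain with the largest difference between TGF-β and the interleukins, higher with TGF-β in 6 of 6 batches by 0.51 ± 0.23 (unadjusted p = 0.0400, edgeR adjusted p = 0.355), the opposite direction to B2M. B2M, in sums, was lower under TGF-β compared with the interleukins (-0.48 ± 0.11, adjusted p = 0.0178), and of the 5 class I chains it alone passed an adjusted p under 0.05 there. Some entries held near-equal counts, such as 2 pairs of HLA-E entries within 10% of each other in 24 of 24 libraries, and reads may have been counted in more than one, which would make a sum too high.

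**Figure D4:**
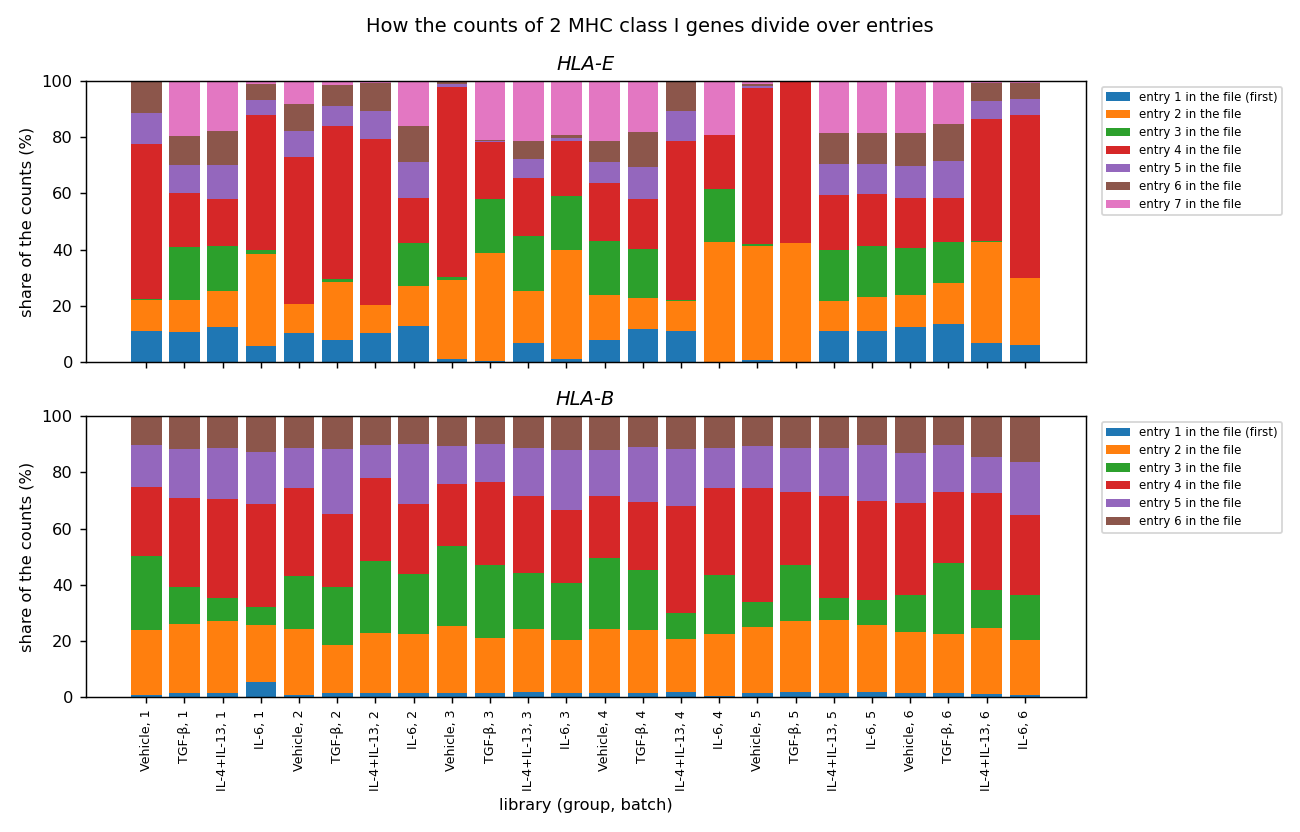
Share of the counts of HLA-E (top) and HLA-B (bottom) that each entry took, in percent, in each of 24 libraries ordered by batch. The first entry, at the base of each bar, holds 0% to 13.4% for HLA-E and 0.266% to 5.47% for HLA-B, and the division over the HLA-E entries differs between libraries.

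Most members varied more between batches than between treatments. The shares were not adjusted for the number of batches (6) and of groups (4). Without any effect of either, both would still take a share, and batches the larger one. In sums of entries, the median member had 66.4% of its variance between batches and 9.47% between treatments, where all symbols had 56.7% and 6.58%. Among genes with a mean of at least 10 normalized counts the batch shares were close, at 67.4% for 31 members and 65.7% for all symbols, and the treatment shares were 8.04% and 5.53%. HLA-B had 89.2% between batches and 1.31% between treatments. IFIT1 was the reverse, with 57.4% between treatments and 21.9% between batches, and IFI44L had 41.3% and 37.5%. Of the 31 members with a mean of at least 10 normalized counts, 15 were highest in batch 1, and 10 were lowest in batch 2 and 9 in batch 6. These counts were not taken over all symbols, so they may not be particular to the members.

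**Figure D5:**
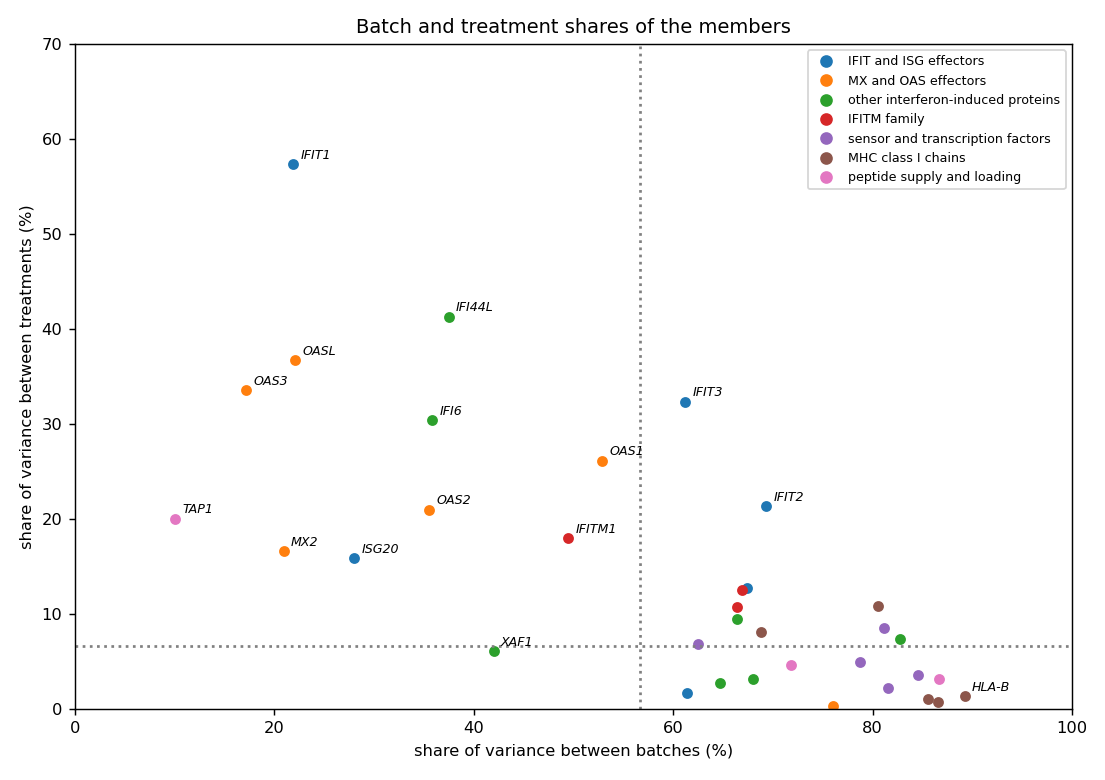
Share of variance between treatments against share between batches, in percent, for 35 members (sums of entries) coloured by role, with dotted lines at the medians of all symbols. IFIT1 and IFI44L stand highest, and the MHC class I chains lie to the lower right.

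Genes upstream of the members were expressed. None of STAT2, the kinases JAK1, JAK2 and TYK2, and the receptor chains IFNAR1, IFNAR2, IFNGR1, IFNGR2, IFNLR1 and IL10RB passed an adjusted p under 0.05 in the 6 comparisons by edgeR, with 3 tests at an unadjusted p under 0.05 (IFNAR2, IFNGR2 and IFNLR1, each in 1 comparison). In vehicle, STAT2 held 2464 to 4103 counts, JAK1 8752 to 13941, IFNAR1 2517 to 3250 and IFNAR2 628 to 1053. STAT2 changed by -0.05 ± 0.08 with TGF-β against vehicle. IFNAR2 was the nearest to a change, higher under TGF-β, compared with the interleukins, by 0.21 ± 0.08 (adjusted p = 0.192). TYK2, JAK2, IFNGR1, IFNGR2, IFNLR1 and IL10RB had log2 fold changes between -0.19 and 0.18 in these 2 comparisons. JAK1 is not in that range, and had a mean level of 13.39 in vehicle, 13.45 with TGF-β and 13.17 with IL-4 + IL-13. Of the 12 interferon ligand genes listed, IFNE held the most in vehicle, at 7 to 60 counts per library. IFNW1 held 0 to 7 and IFNA5 0 to 5. The others, IFNB1, IFNA1 and IFNG among them, held no more than 3 counts in a vehicle library.

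Among the other lists, TGF-β against IL-4 + IL-13 gave 5 genes under 0.05. STING1, an adaptor of cytosolic DNA sensing (-0.81 ± 0.17, adjusted p = 0.00941), TLR3, an endosomal sensor of double-stranded RNA (-1.40 ± 0.38, adjusted p = 0.0437), and PARP14 (-0.49 ± 0.12, adjusted p = 0.0221) were lower with TGF-β. IFI16, a nuclear DNA sensor (0.46 ± 0.11, adjusted p = 0.0270), and IFNE, an interferon of the type I family (1.78 ± 0.44, adjusted p = 0.0270), were higher, with IFNE at 13 to 63 counts per library with TGF-β and 2 to 17 with the interleukins. These were 2 of 13 sensing genes, 2 of 29 other interferon-stimulated genes and 1 of 6 ligands tested, where 3.25% of symbols passed. MHC class II, negative regulators and other MHC class I pathway genes had none in this contrast. The interleukin response itself was plain: ALOX15, an IL-4 and IL-13 target, was higher against vehicle by 10.58 ± 0.41 (adjusted p = 6.777e-11) in 6 of 6 batches, and COL10A1 was higher with TGF-β by 4.52 ± 0.71 (adjusted p = 0.00951).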

How the data were processed

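Whole-culture mRNA of 24 libraries was sequenced. Per the labels and the study's methods, reads were trimmed with Trimmomatic 0.30 and aligned to GRCh38.p14, and the deposited values are the authors' raw read counts per gene entry. The aligner, counting tool and strandedness are not given in the sources used here. The 37 members and all gene lists were chosen with earlier results of these data known. The first entry of a symbol was used, and sums over entries beside it. Counts were tested in R 4.3.3 with edgeR 4.0.16 (TMM, robust quasi-likelihood F tests with terms for batch and for treatment, entries with a total of at least 10, Benjamini-Hochberg over 29377 entries). Standard errors were derived by dividing each log2 fold change by √F. DESeq2 1.42.0 was run beside it. Levels use its size factors and a pseudocount of 1. Lengths are GENCODE canonical transcripts. All members are named by role, with full statistics for at most 10 per comparison at an unadjusted p under 0.05. Batches are labelled and shared by all groups, and libraries of a batch deviated together (median r 0.565 over 36 pairs, lowest -0.0458, against -0.162 between batches). In simulated IL-4 + IL-13 counts on 28813 genes, 88% of changes of log2 fold 1.5 and 98% of those of 3 were recovered, with 3 false calls. The simulated counts held no batch differences, and genes with the lowest means were not chosen to change. Changes below 1.5 were not simulated, so these rates do not give the power for the members. Promoter windows, matched for 29 of 37 members, came from RefSeq. One gene of the pathway lists is not reported here.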

Additional observations from a re-analysis of the deposited data

Results flagged for a closer look

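A library far from the other 5 of its group was found in 9 of 141 groups of levels by Dixon's test at the 95% level, and chance flags about 1 in 20 groups. OAS3 stood at 0 in the IL-4 + IL-13 library of batch 3 (next 1.58) and at 0 in the IL-6 library of batch 2 (next 2.39). XAF1 stood at 0 in the IL-6 library of batch 1 (next 3.54). IFI44 was lowest, at 5.44, in the vehicle library of batch 6 (next 6.80), and HLA-F, in sums of entries, at 4.27 in the IL-6 library of batch 6 (next 5.73). IRF1 was highest, at 8.69, in the vehicle library of batch 1 (next 7.70). In sums, PSMB8 stood at 1.99 in the IL-4 + IL-13 library of batch 5 and at 2.29 in the IL-6 library of batch 3, and PSMB9 at 1.94 in the IL-4 + IL-13 library of batch 1, with the other libraries of these groups at 0.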

How the results depend on the processing

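No result changed direction under the alternatives run. Members at an adjusted p under 0.05 in TGF-β against vehicle numbered 4 with DESeq2 (1 of them past a log2 fold change of 1), 1 with no filter beyond a total above 0, 1 without the vehicle library of batch 2 (chosen after seeing the data), 0 with only the groups compared and 0 without batches 2 and 4. In IL-4 + IL-13 against vehicle DESeq2 passed 2 (1 past the fold), and in TGF-β against IL-6 it passed 3, with 2 without that vehicle library. Without the replicate block, that is with batch left out of the model, 0 members passed in TGF-β against vehicle, in TGF-β against IL-4 + IL-13 (also 0 past the fold) and in the test of any difference. That last test gave 2 without batches 2 and 4. Leaving out each batch in turn gave 0 to 1 members in TGF-β against vehicle, 2 to 4 past the fold in TGF-β against IL-4 + IL-13, 0 to 1 in TGF-β against IL-6 and 1 to 5 in the test of any difference. The causes were not tested. TAP1, PSMB8, PSMB9 and some OAS genes had few counts, and why was not tested.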

Other observations

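After each batch's mean was removed, IFITM2 and IFITM3, related genes on chromosome 11, moved most alike of the members with a mean of at least 10 normalized counts (Pearson's r 0.989 over 24 libraries), and IFIT2 moved with B2M (0.910), IFIT3 (0.909) and IFIT1 (0.907). The lowest value was -0.687, between IRF7 and TAP2. The libraries share batches and treatments, so these values are a description.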
